A study of Homo sapiens with 6 samples.

Results

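Amino acid transporter genes were defined by symbol. They were the genes whose single symbol in the platform's probe annotation starts with SLC1A, SLC3A, SLC7A, SLC36A, SLC38A or SLC43A followed by a digit, and SLC6A9 was added. The rule found 42 genes among the 18417 genes tested. Of these, 41 encode carriers or their heavy chains, and SLC7A6OS is a gene on the strand opposite SLC7A6 that the symbol rule also takes in. By family there were 7 SLC1, 2 SLC3, 13 SLC7, 4 SLC36, 12 SLC38 and 2 SLC43 genes beside SLC6A9 and SLC7A6OS. The probe set that lists SLC43A3 also lists PRG2, so the single-symbol rule left it out.

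The 6 samples came from MDA-MB-231, an established line of human breast cancer cells of the triple-negative kind. Of the cultures, 3 were given 10 µM YW3-56 for 8 h, a small molecule known as an inhibitor of the peptidylarginine deiminases, which turn arginine in proteins into citrulline. The other 3 were given DMSO, the vehicle, and the labels give no separate time for it. All 6 cultures were grown in medium with 10% serum and were at about 70% confluence at treatment. The labels call the replicates biological and give no further detail on their origin. The main p-values therefore set the difference between the groups against the spread between these cultures, with variance partly shared between genes. The comparison asks which transporter transcripts differ after exposure to the compound.

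Cells take up amino acids through carriers that differ in substrate and in the ion or exchange that drives them. Most SLC7 light chains work only when joined to a heavy chain, SLC3A2 or SLC3A1, which brings them to the membrane. Sodium-coupled SLC38 and SLC1 carriers load the cell with neutral amino acids, and SLC7A5 with SLC3A2 exchanges them for leucine and other large ones. SLC7A11 with SLC3A2 brings in cystine for glutathione in exchange for glutamate. SLC36 and some SLC38 carriers move amino acids across the lysosomal membrane. Several of these genes are known targets of ATF4, the transcription factor that responds to amino acid shortage and to stress of the endoplasmic reticulum.

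Values were log2 expression values from Affymetrix arrays, whose medians lay between 7.55 and 7.74. Over genes, arrays of the same group correlated at 0.990 to 0.997 (Pearson), and arrays of different groups at 0.980 to 0.985. Of the markers listed for the line, VIM, CD44, EGFR, FOSL1 and AXL all stood at or above the 92.5 percentile of gene means. ESR1, PGR, CDH1, EPCAM and GATA3 lay below the median, whereas FOXA1, listed as dim, lay at the 62.4 percentile. Of these markers FOSL1 (-0.54) and GATA3 (-0.37) were called lower after YW3-56 and FOXA1 (0.50) higher, each with a limma adjusted p under 0.05. All 6 measured markers of leukocytes, endothelium and adipocytes were below the median, none of them was called in either direction, and their summed log2 level was 38.92 to 39.46 in YW3-56 and 38.40 to 40.62 in DMSO. In bulk RNA, fewer cells of a kind and less RNA per cell cannot be told apart.

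A gene was taken as expressed when its mean over the 6 arrays was at or above the median of all gene means, 8.20, and as dim below it. Probe brightness also depends on the probes, so this split is approximate. By it, 22 of the 42 genes were expressed and 20 were dim. The members nearest above the limit were SLC7A10 at 8.37 and SLC7A2 at 8.40, and SLC7A4 at 7.41 and SLC38A8 at 7.21 were the nearest below it. SLC7A2 passed the limit only through its DMSO arrays, with means of 7.82 in YW3-56 and 8.98 in DMSO, so its difference between the groups helped to set its class.

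After YW3-56, 10 of the 42 transporter genes were called higher, or 23.8%, against 9.84% of all genes tested. Called means a limma adjusted p under 0.05, with Benjamini-Hochberg adjustment over all 18417 genes. The genes that rose were SLC6A9, SLC1A4, SLC7A11, SLC38A2, SLC3A2, SLC38A7, SLC38A6, SLC7A5, SLC1A5 and SLC7A1. Only 2 fell, SLC7A2 and SLC1A1, or 4.76%, against 11.5% of all genes, and 30 were not called. At least 2-fold rises were called for SLC6A9 and SLC1A4, 2 of 42, where 0.896% of all genes had one. SLC6A9 entered the list by name and not through its family. The members were chosen with earlier results of these data known, so the counts of rises are no independent evidence. The 3 YW3-56 values lay above the 3 DMSO values in 13 of the 42 genes, against 15.5% of all genes, and below them in 2, against 21.4%. The median log2 fold change over the 42 genes was 0.00, and over all genes it was -0.05. With replicate number as a block, SLC1A1 was not called and 1 member was lower.

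**Figure D1:**
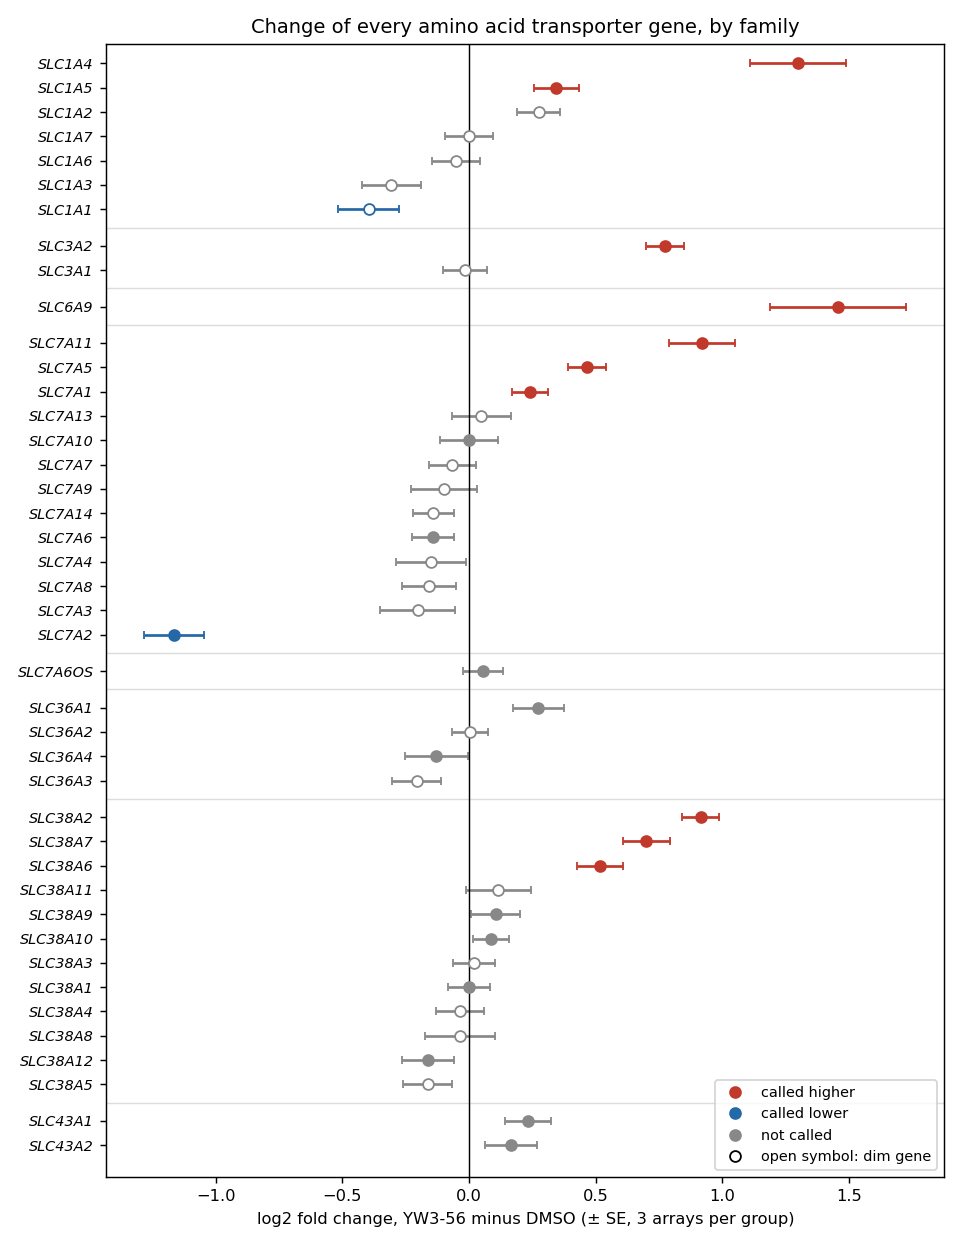
Log2 fold change (YW3-56 minus DMSO) of the 42 genes with its standard error, 3 arrays per group, sorted within families from top to bottom (SLC1, SLC3, SLC6, SLC7, SLC7A6OS, SLC36, SLC38, SLC43). Red marks the 10 genes called higher and blue the 2 called lower; open symbols are dim genes, and every gene called higher has a filled symbol.

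The heavy chain SLC3A2, which carries most SLC7 light chains to the cell surface, was 1.71-fold higher. Its values were 13.44, 13.41 and 13.44 in YW3-56 and 12.73, 12.57 and 12.67 in DMSO, so the groups lay far apart relative to their spread (a log2 fold change of 0.77 with an SE of 0.07, 3 arrays in each group, limma adjusted p = 4.2e-04). SLC3A1, the heavy chain of the kidney and gut cystine transporter, was dim and had means of 6.18 ± 0.11 in YW3-56 and 6.20 ± 0.09 in DMSO (SD, n = 3 each).

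Of the 8 SLC7 light chains, 2 were called higher and none lower, where 9.84% of all genes were called higher and 11.5% lower. SLC7A11, the cystine and glutamate exchanger xCT, had values of 12.78, 12.84 and 12.94 in YW3-56 and 12.00, 11.64 and 12.16 in DMSO. All 3 treated arrays were above all controls, and the DMSO arrays were the more scattered (0.92 ± 0.13 SE, limma adjusted p = 0.0020, 1.89-fold). SLC7A5, the leucine exchanger LAT1, had values of 13.33, 13.32 and 13.47 in YW3-56 and 12.90, 12.85 and 12.96 in DMSO. That rise was smaller in size and the groups again did not overlap (0.47 ± 0.08, limma adjusted p = 0.0038, 1.38-fold). SLC7A6, which exchanges cationic for neutral amino acids, was measured at 10.84, 10.85 and 10.95 in YW3-56 and 11.12, 10.91 and 11.04 in DMSO, where the groups overlapped (-0.14 ± 0.08, adjusted p = 0.298 by limma). SLC7A10, a carrier of small neutral amino acids, differed by 0.00 ± 0.12. SLC7A8 (LAT2), a dim exchanger of neutral amino acids, had values of 6.55, 6.71 and 6.59 in YW3-56 and 6.56, 6.89 and 6.87 in DMSO, and the groups overlapped. Without DMSO replicate 1 it was called lower (-0.27, adjusted p = 0.0458 by limma). The light chains SLC7A7, SLC7A8, SLC7A9 and SLC7A13 were dim, and their log2 fold changes ran from -0.16 for SLC7A8 to 0.05 for SLC7A13.

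The 250 bases before the SLC3A2 start are shown because this heavy chain serves both light chains that rose. The sequence is from RefSeq (GRCh38.p14, chr11:62881449-62881698, plus strand, 5′ to 3′), and capitals mark the only match, on either strand, to TGANNNNGC, the core of the antioxidant response element.

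SLC3A2: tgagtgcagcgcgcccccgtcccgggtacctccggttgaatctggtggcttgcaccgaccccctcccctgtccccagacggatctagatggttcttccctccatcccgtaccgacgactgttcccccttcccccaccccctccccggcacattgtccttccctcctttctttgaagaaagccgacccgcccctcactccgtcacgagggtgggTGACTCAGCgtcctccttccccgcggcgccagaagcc

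A match to this loose core is common. Of 27305 RefSeq windows that reach from 250 bases before to 50 after a gene's start, 42.1% hold it, and of the 34 transporter genes with such a window 17 do. Among the genes called higher it was found in 6 of 9 windows, and SLC7A11 has no window in the table. The core of the C/EBP-ATF response element, TGATGNAA, is rarer, in 3.67% of all windows on either strand, and on the same strand it cannot start at the same base as the other core. It was found in 4 of the 34 transporter windows, in SLC3A2 and SLC7A1 among the 9 genes called higher and in SLC38A1 and SLC1A3 among the other 25. Those matches are given with the bases around them, 5′ to 3′ on the gene's strand in GRCh38.p14, with the match in capitals. The SLC3A2 stretch lies at chr11:62881726-62881748 and holds the core on the opposite strand, the SLC7A1 stretch at chr13:29595664-29595691, the SLC38A1 stretch at chr12:46266503-46266530 and the SLC1A3 stretch at chr5:36596358-36596385.
SLC3A2: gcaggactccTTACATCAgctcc
SLC7A1: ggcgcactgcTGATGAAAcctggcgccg
SLC38A1: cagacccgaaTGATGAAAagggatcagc
SLC1A3: aggaaatgacTGATGCAAagcagggtta
These are matches of letters and not measured binding, and 2 of the 4 genes that hold one were called higher.

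The cationic carriers SLC7A1 and SLC7A2 bring arginine, lysine and ornithine into the cell. Of the 5 SLC7 genes grouped here as cationic, SLC7A1 was called higher and SLC7A2 lower. Over all genes, 9.84% were called higher and 11.5% lower. SLC7A2 (CAT2) had values of 7.65, 7.87 and 7.93 in YW3-56 and 9.20, 8.92 and 8.83 in DMSO. All treated arrays lay well below all controls, and the level was 2.24-fold lower, the largest fall among the 42 genes (-1.16 ± 0.12 SE, limma adjusted p = 5.2e-04). SLC7A1 (CAT1), the widely expressed carrier of the same substrates, had values of 12.88, 12.92 and 12.94 in YW3-56 and 12.63, 12.64 and 12.74 in DMSO. Its rise of 0.24 ± 0.07 was small, and the call (limma adjusted p = 0.045) was lost without any 1 YW3-56 array and without DMSO replicate 1 or 2, with adjusted p between 0.0709 and 0.162. The relatives SLC7A3, SLC7A4 and SLC7A14 were dim and had log2 fold changes of -0.20, -0.15 and -0.14, none of them called.

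**Figure D2:**
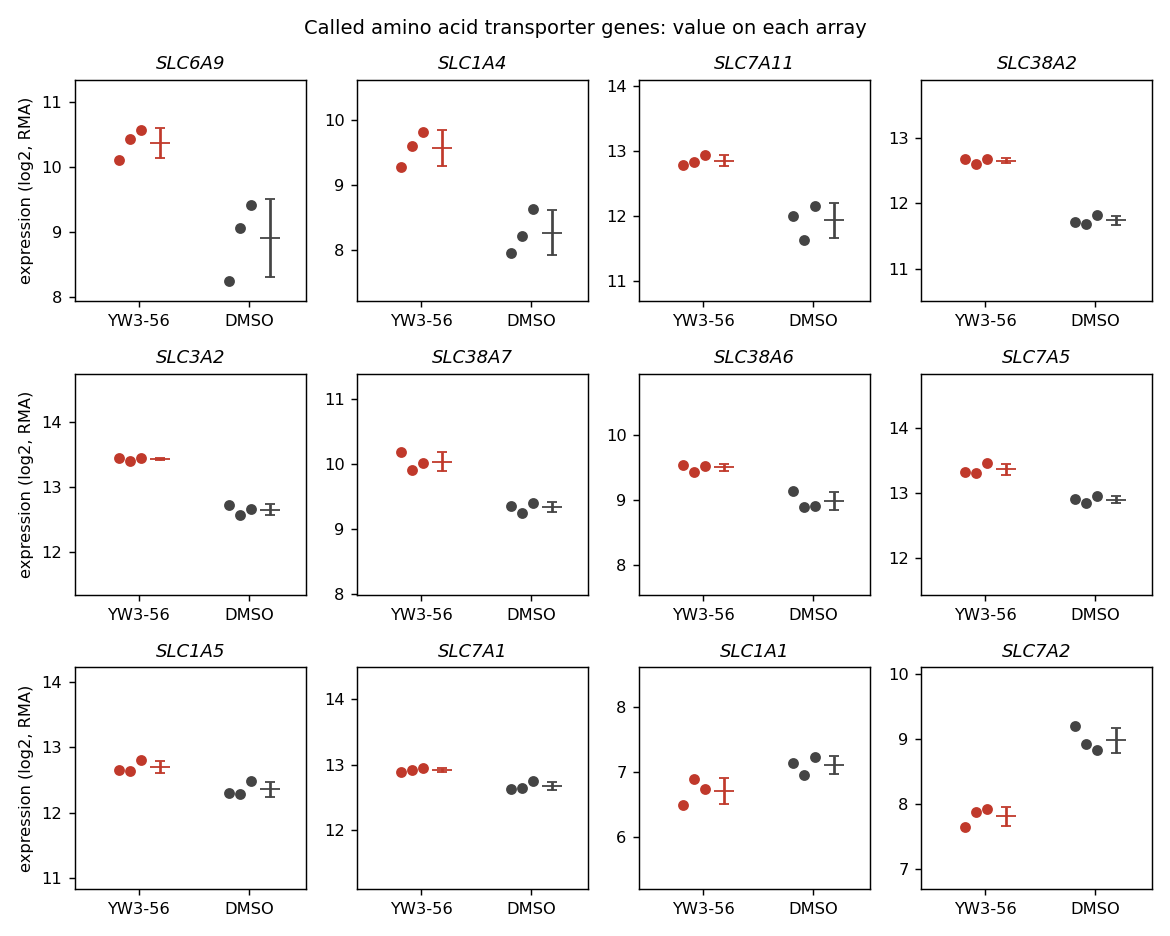
Log2 expression of the 12 called genes on each array, with the 3 YW3-56 arrays in red to the left of the 3 DMSO arrays in dark grey; the bar beside the points is the mean with its SD, and each panel spans the same range of 3.4 log2 units. In all 12 panels the groups do not overlap, and the DMSO points of SLC6A9, from 8.24 to 9.42, are the most scattered. The 12 genes were picked by their calls on these same arrays, so the lack of overlap adds no support. Over all genes, 15.5% had the YW3-56 arrays above the DMSO arrays and 21.4% below.

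SLC6A9, the glycine transporter GlyT1, and SLC1A4, an exchanger of serine, alanine and other small neutral amino acids, showed the 2 largest rises. SLC6A9 had values of 10.11, 10.42 and 10.57 in YW3-56 and 8.24, 9.06 and 9.42 in DMSO. The lowest treated array was above the highest control, although the controls alone spanned more than 1 log2 unit (1.46 ± 0.27 SE, limma adjusted p = 0.0065, 2.75-fold). Without DMSO replicate 1, its low value, the change was 1.13, and a per-gene test that does not share variance between genes did not call it (adjusted p = 0.083). SLC1A4 had values of 9.27, 9.61 and 9.82 in YW3-56 and 7.95, 8.21 and 8.64 in DMSO, also without overlap (1.30 ± 0.19, limma adjusted p = 0.0023, 2.46-fold). In both genes the array numbered 1 was the lowest of each group.

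SLC1A5, the glutamine exchanger ASCT2, was bright and rose little. It had values of 12.65, 12.64 and 12.81 in YW3-56 and 12.30, 12.28 and 12.48 in DMSO (0.35 ± 0.09, limma adjusted p = 0.025, 1.27-fold). The call was lost without any 1 YW3-56 array and without DMSO replicate 2, with adjusted p between 0.0532 and 0.111. A second, dimmer probe set for SLC1A5, 8029854, averaged 8.29 in YW3-56 and 8.29 in DMSO, while the rise was seen in probe set 8037835. The mean of both probe sets changed by 0.17 and was not called (adjusted p = 0.180 by limma).

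All 5 sodium-coupled carriers of glutamate and aspartate in the SLC1 family were dim, and none of them was called higher. Among all dim genes 3.89% were called higher and 4.28% lower, so this count is not read as a difference from other carriers. SLC1A1 (EAAT3) had values of 6.50, 6.90 and 6.73 in YW3-56 and 7.14, 6.95 and 7.23 in DMSO, where the highest treated and lowest control arrays nearly met. It was called lower (-0.40 ± 0.12, limma adjusted p = 0.0484), but the call was lost with replicate number as a block (0.0568) and without YW3-56 replicate 1 or 3 or any 1 DMSO array (0.0542 to 0.140). SLC1A3 (EAAT1) had a log2 fold change of -0.31 ± 0.11 and was not called (adjusted p = 0.103 by limma). SLC1A2 (EAAT2) had values of 6.70, 6.47 and 6.63 in YW3-56 and 6.33, 6.39 and 6.25 in DMSO. Its groups did not overlap, but its adjusted p was 0.0538 by limma, just outside the threshold. SLC1A6 and SLC1A7 differed by -0.05 and 0.00.

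In the SLC38 family 3 of 12 genes were called higher, where 9.84% of all genes were, and none was called lower, where 11.5% were, and the family was not tested against other genes. SLC38A2 (SNAT2), a sodium-coupled carrier of small neutral amino acids known to be induced by amino acid shortage, had values of 12.68, 12.61 and 12.68 in YW3-56 and 11.72, 11.69 and 11.82 in DMSO. Arrays within a group differed by little more than 0.1 and the groups by 0.91 ± 0.07 SE (limma adjusted p = 2.1e-04, 1.88-fold), the smallest adjusted p among the transporter genes. Its close relative SLC38A1 (SNAT1), which prefers glutamine, had values of 12.89, 13.04 and 13.09 in YW3-56 and 12.95, 12.99 and 13.08 in DMSO. The groups overlapped fully and the difference was -0.00 ± 0.08. SLC38A4, the remaining carrier of this subgroup, was dim and differed by -0.04 ± 0.10.

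SLC38A1, SLC38A2 and SLC38A4 follow each other on chromosome 12 with no other protein-coding gene between them in RefSeq, so the gene that rose sits between 2 that were not called. The 250 bases before the starts of the 2 bright neighbours are shown for comparison (GRCh38.p14, minus strand, 5′ to 3′), SLC38A2 at chr12:46372774-46373023 and SLC38A1 at chr12:46266517-46266766. They hold no capitals because neither stretch has a match to TGANNNNGC, and the TGATGNAA match of SLC38A1 given above runs across its start. Only the 250 bases before and 50 after each start were searched, so a response element elsewhere in either gene would not be seen.
SLC38A2: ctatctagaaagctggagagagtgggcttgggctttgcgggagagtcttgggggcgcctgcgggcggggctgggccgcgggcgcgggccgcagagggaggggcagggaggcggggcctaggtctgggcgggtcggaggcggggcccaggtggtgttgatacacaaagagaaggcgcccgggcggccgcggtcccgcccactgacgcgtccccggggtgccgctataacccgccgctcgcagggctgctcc
SLC38A1: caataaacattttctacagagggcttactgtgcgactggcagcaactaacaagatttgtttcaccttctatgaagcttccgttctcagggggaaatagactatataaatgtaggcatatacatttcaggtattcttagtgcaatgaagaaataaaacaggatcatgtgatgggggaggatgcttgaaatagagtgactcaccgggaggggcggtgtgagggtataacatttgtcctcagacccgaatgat

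SLC38A7, which exports glutamine and asparagine from lysosomes, had values of 10.19, 9.91 and 10.02 in YW3-56 and 9.36, 9.26 and 9.41 in DMSO. The groups were clearly apart (0.70 ± 0.09 SE, limma adjusted p = 0.0015, 1.62-fold). SLC38A6, a less studied family member, had values of 9.54, 9.43 and 9.53 in YW3-56 and 9.15, 8.90 and 8.91 in DMSO (0.52 ± 0.09, limma adjusted p = 0.0050, 1.43-fold). SLC38A9, the lysosomal arginine sensor that acts on mTORC1, was measured at 9.23, 8.98 and 9.04 in YW3-56 and 9.11, 8.86 and 8.96 in DMSO, with overlapping groups (0.11 ± 0.10). The other 6 SLC38 genes were not called. SLC38A10 and SLC38A12 differed by 0.09 and -0.16, and the dim SLC38A3, SLC38A5, SLC38A8 and SLC38A11 by values from -0.16 to 0.12.

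None of the 4 proton-coupled SLC36 carriers was called, where 9.84% of all genes were called higher and 11.5% lower. With so few genes, this count is not read as a trait of the family. SLC36A1 (PAT1), which moves small neutral amino acids out of lysosomes, had values of 10.91, 10.78 and 11.08 in YW3-56 and 10.76, 10.55 and 10.64 in DMSO. The lowest treated array was barely above the highest control (0.27 ± 0.10 SE, limma adjusted p = 0.0939), and with replicate number as a block SLC36A1 was called (0.0493). It was also called after a second quantile normalization, with only genes at or above the median of means and with a trended and robust variance prior. Array weights and leaving out DMSO replicate 1 called it too (limma adjusted p from 0.0084 to 0.0454 over these alternatives). SLC36A4, a carrier of proline and tryptophan, differed by -0.13 ± 0.12, and the dim SLC36A2 and SLC36A3 differed by 0.00 and -0.21. The 3 values of SLC36A3 were 5.84, 5.99 and 6.07 in YW3-56 and 6.02, 6.22 and 6.27 in DMSO.

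The system L carriers SLC43A1 (LAT3) and SLC43A2 (LAT4) move branched-chain amino acids without exchange. SLC43A1 had values of 10.69, 10.47 and 10.49 in YW3-56 and 10.39, 10.19 and 10.36 in DMSO, without overlap but not called (0.23 ± 0.09 SE, limma adjusted p = 0.121). A second quantile normalization (limma adjusted p = 0.0398) and array weights (0.014) called SLC43A1 higher. SLC43A2 differed by 0.17 ± 0.10 and its groups overlapped. SLC7A6OS, which overlaps SLC7A6 on the opposite strand, differed by 0.06 ± 0.08.

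All 10 rises were among the 22 expressed members, 45.5% of them, where 15.8% of all expressed genes were called higher. SLC6A9, added to the list by name, is 1 of these 10. All 10 also had DMSO means above the limit, the lowest that of SLC1A4 at 8.27. Of the 20 dim members 0 were called higher by limma, where 3.89% of all dim genes were, and 1 of them, SLC1A2, was higher at an unadjusted p under 0.05. For falls, 1 of the 22 expressed members was called, where 18.8% of all expressed genes were. That gene is SLC7A2, which counts as expressed only through its DMSO level, so nothing is read from this count. A fall was also called for 1 of the 20 dim members, SLC1A1, where 4.28% of all dim genes were. The median log2 fold change was 0.24 over the expressed members and -0.06 over the dim ones, and it was -0.05 over all expressed and over all dim genes. Without YW3-56 replicate 2, the dim SLC1A2 was called higher too (adjusted p = 0.0494), and SLC1A1 lost its call without 5 of the 6 arrays, as given above.

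The same counts were taken within families. Over all expressed genes 15.8% were called higher and 18.8% lower, and over all dim genes 3.89% and 4.28%. SLC3A2 was expressed and rose, and SLC3A1 was dim and was not called. Both expressed SLC1 genes rose, and of the 5 dim ones 1 was called, SLC1A1, which fell. Of the 6 expressed SLC7 genes 3 rose and 1 fell, and none of the 7 dim ones was called. The 1 that fell is SLC7A2, which counts as expressed only through its DMSO level, so nothing is read from that fall. In SLC38, 3 of 7 expressed genes rose and none of the 5 dim ones was called. Both expressed SLC36 genes and both expressed SLC43 genes stayed uncalled. Family medians over all members were 0.38 for the 2 SLC3 genes, 0.05 for SLC38, 0.00 for SLC1, -0.06 for SLC36, -0.10 for SLC7 and 0.20 for SLC43, and no test compared families.

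**Figure D3:**
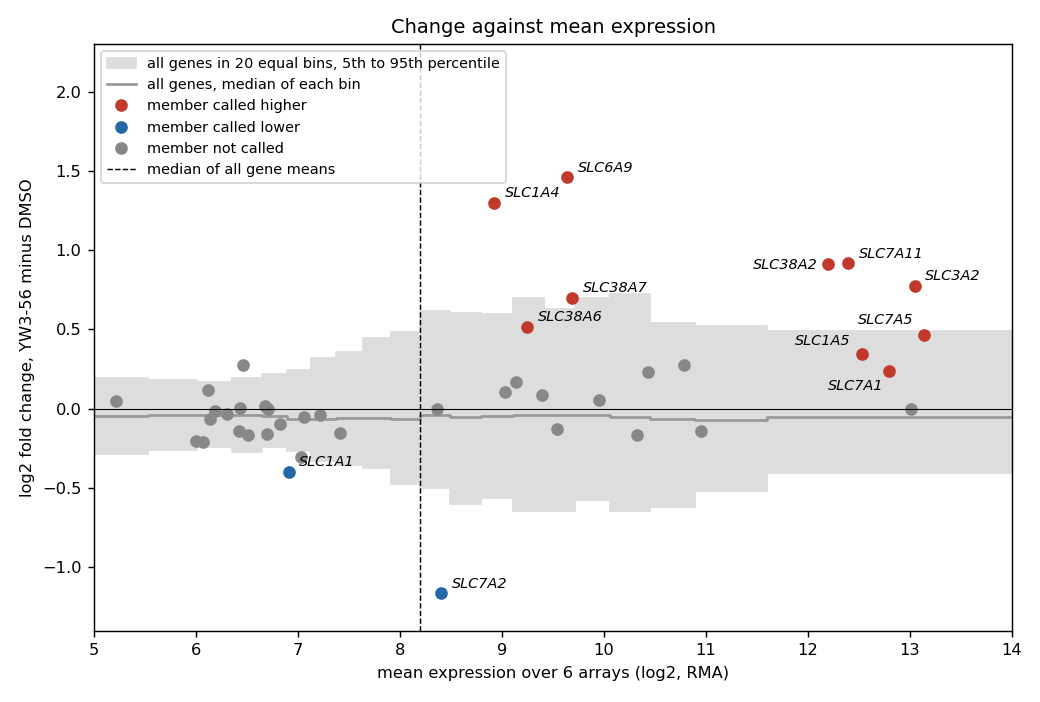
Log2 fold change (YW3-56 minus DMSO) of the 42 genes against their mean log2 expression over 6 arrays; the grey band and line are the 5th to 95th percentile and the median of all 18417 genes in 20 bins of equal size, and the dashed line is the median gene mean of 8.20. The 10 red genes called higher all lie right of the dashed line, with SLC6A9 (1.46) and SLC1A4 (1.30) at the top, SLC7A2 (-1.16) at the bottom and SLC1A1 (-0.40) as the only called gene left of the line.

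Carriers of amino acids outside these families were described from 4 further lists. Of 9 other SLC6 amino acid carriers, 8 were dim and not called, and SLC6A6, the taurine transporter, was called higher, where 9.84% of all genes were (0.58 ± 0.10 SE, limma adjusted p = 0.0053). It had values of 11.21, 11.09 and 11.17 in YW3-56 and 10.76, 10.39 and 10.57 in DMSO. The largest uncalled changes in that list were -0.14 for SLC6A18, -0.11 for SLC6A19 and -0.09 for SLC6A20. Of 6 SLC15, SLC16 and SLC32 genes, 1 was called in each direction, where 9.84% of all genes were called higher and 11.5% lower. The dim peptide carrier SLC15A2 was higher (0.38) and the dim aromatic amino acid carrier SLC16A10 lower (-0.35). The call of SLC16A10 was lost without YW3-56 replicate 2 (adjusted p = 0.0574) or 3 (0.057). SLC15A3 and SLC15A4, carriers of histidine and small peptides, differed by -0.34 and -0.31 and were not called. SLC15A3 was called lower after a second quantile normalization (limma adjusted p = 0.0404), with array weights (0.0117) and without DMSO replicate 1 (0.0227). With replicate number as a block SLC15A4 was called (adjusted p = 0.0145 by limma), and 2 genes of that list were lower.

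Of 8 measured lysosomal and vesicular carriers, 2 were called higher, where 9.84% of all genes were. The 8 include SLC29A3, a nucleoside carrier and not an amino acid carrier, which was expressed and not called (0.02). Of the 8, 5 were expressed, and among all expressed genes 15.8% were called higher. CTNS, which releases cystine from lysosomes, had values of 10.46, 10.11 and 10.37 in YW3-56 and 9.78, 9.48 and 9.58 in DMSO (0.70 ± 0.12 SE, limma adjusted p = 0.0040). SLC66A1, which releases arginine and lysine, rose by 0.34 ± 0.08 (adjusted p = 0.0155 by limma), a call lost without YW3-56 replicate 2 (0.069) or DMSO replicate 2 (0.0706). MFSD12, which imports cysteine into lysosomes and melanosomes, differed by 0.15, and the sialic acid carrier SLC17A5 by -0.06.

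Of 12 mitochondrial amino acid carriers, 5 were called lower, where 11.5% of all genes were, and 1 was called higher, where 9.84% were. Of the 12, 10 were expressed, and among all expressed genes 18.8% were called lower. SLC25A13, the aspartate and glutamate carrier citrin, had values of 9.87, 9.65 and 9.78 in YW3-56 and 10.73, 10.53 and 10.67 in DMSO, with no overlap (-0.87 ± 0.09 SE, limma adjusted p = 5.4e-04). The glutamate carrier SLC25A22 changed by -0.68 ± 0.09, the ornithine carrier SLC25A15 by -0.52 ± 0.10, the serine carrier SFXN1 by -0.49 ± 0.08 and the second aspartate and glutamate carrier SLC25A12 by -0.43 ± 0.07, all 5 called. SFXN3, a relative of SFXN1, was called higher (0.27 ± 0.08), but without any 1 YW3-56 array, and without DMSO replicate 2 or 3, it was not called, with adjusted p between 0.0632 and 0.129. The list's median was -0.17, against -0.05 over all genes.

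**Figure D4:**
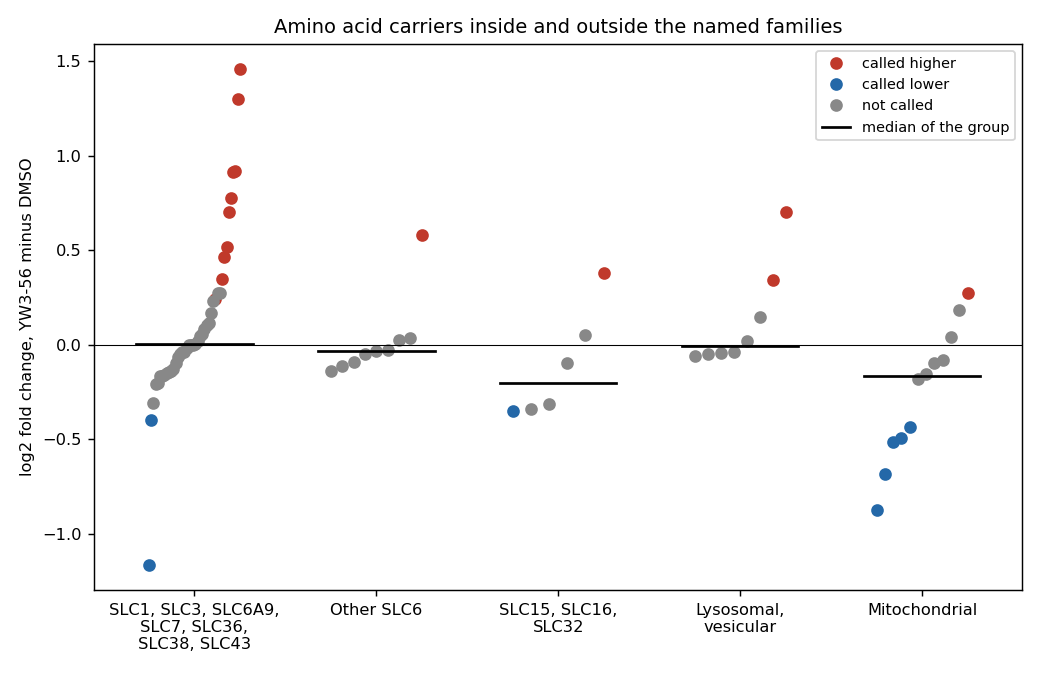
Log2 fold change (YW3-56 minus DMSO) of the 42 transporter genes and of 4 lists of other amino acid carriers, each point 1 gene, sorted within its group, with red for called higher, blue for called lower and a black line for the group's median. The mitochondrial list has 5 blue points between -0.87 and -0.43, and the lysosomal and vesicular list has 2 red points at 0.70 and 0.34. The lysosomal and vesicular list also holds the nucleoside carrier SLC29A3.

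A last list held 13 transcription factors known to act on transporter genes, of which 10 were called higher, where 9.84% of all genes and 15.8% of expressed genes were, and 9 of the 13 were expressed. The list was drawn up with earlier results of these data known, so its count is no independent evidence. Besides DDIT3 (3.36), the stress factor CHOP, the largest rises were those of JDP2 (1.51), CEBPB (0.83) and ATF3 (0.72). CEBPG, BACH1, NUPR1 and TFE3 were called higher by 0.57, 0.49, 0.49 and 0.32. CEBPG lost its call without any 1 YW3-56 array and without DMSO replicate 2 (limma adjusted p from 0.058 to 0.085). NUPR1 lost it without YW3-56 replicate 1 or 2 or DMSO replicate 2 (0.074 to 0.0938). TFE3 lost it without YW3-56 replicate 1 (0.0559) or DMSO replicate 2 (0.0684). The per-gene test without shared variance did not call CEBPG, NUPR1 or BACH1. NFE2L2, the gene of NRF2, rose by 0.49 ± 0.07 (limma adjusted p = 0.0017). The rise of ATF4 by 0.49 was that of its brightest probe set, and the mean of its probe sets changed by -0.023. The call of ATF4 was lost without any 1 YW3-56 array and without DMSO replicate 2, with adjusted p between 0.0814 and 0.142. Without YW3-56 replicate 1 or DMSO replicate 2, 6 of the 13 were called higher, and with replicate number as a block ATF5 was called lower. Whether any of these factors acted on the transporter genes was not tested.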

How the data were processed

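RNA from 6 cultures, 3 with YW3-56 and 3 with DMSO, was measured on Affymetrix arrays. The authors deposited log2 values of 33297 probe sets and, per the submitters' processing notes, used RMA and the affy package, for which no version is stated in the sources at hand. RMA as usually run gives all arrays the same distribution of values, but the medians of these arrays were not equal (7.55 to 7.74), so a second quantile normalization was among the alternatives. A change common to all transcripts could be hidden by such scaling. Precision is limited by there being 3 arrays in each group.

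Gene names came from the annotation of the platform, which can be old, where 19460 probe sets had a single symbol, 1754 several and 12083 none. The brightest probe set by mean of 6 arrays stood for a gene, which gave 18417 genes. All 42 members matched a RefSeq gene by Entrez identifier, and 34 had a RefSeq promoter window. YW3-56 was compared with DMSO in limma 3.58.1 (R 4.3.3) on group alone, without filtering or further normalization, two-sided, adjusted over all genes and called under 0.05. The steps were tested on simulated data.

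The members, the roles and the 5 further lists were chosen with earlier results of these data known. Every member is named. Values on each array are given for called members and for members whose call changed under an alternative. Of each further list up to 4 members with the largest change are named, called members first, most with the fold change alone, and other called members were added after their values were seen. The list of lysosomal carriers held CTNS under 2 names, and it was counted 1 time.

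Whether replicate numbers pair the arrays was checked from how arrays deviate from their group's mean. The correlation of these deviations was 0.539 between the arrays numbered 1, 0.370 between those numbered 2 and 0.102 between those numbered 3. Each exceeds 0.1, so the blocked fit is given beside the results it changed, although YW3-56 replicate 2 correlated better with DMSO replicate 3 (0.416). There were 16 alternatives: other scaling, filters on dim genes, other use of probe sets, other variance models, array weights, the block and each array left out.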

Additional observations from a re-analysis of the deposited data

How the results depend on the processing

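Of the 12 called members, 8 kept their call and direction in all 16 alternatives: SLC1A4, SLC7A11, SLC38A2, SLC3A2, SLC38A7, SLC38A6, SLC7A5 and SLC7A2. SLC6A9 lost its call only in the per-gene test without shared variance, and SLC1A5, SLC7A1 and SLC1A1 lost theirs in several. The count of members called higher was 8 to 10 when 1 array was left out, and the count called lower 1 to 2. For dim members these counts were 0 to 1 higher and 0 to 1 lower. Members called higher numbered 8 in the per-gene test and with all probe sets tested as such. They numbered 12 after a second quantile normalization and 13 with array weights. Members called lower numbered 1 after a second quantile normalization, with only genes at or above the median of means, in the per-gene test without shared variance, with the replicate block and with all probe sets tested as such. Dim members called lower numbered 0 after the second quantile normalization, in the per-gene test, with the replicate block and with all probe sets. With array weights, 2 dim members were called lower and 1 higher. The replicate block changed no other member's call than those of SLC1A1 and SLC36A1. With the lower quartile of gene means in place of the median as limit, 2 expressed and 0 dim members were lower, and the median of expressed members was 0.11. Averaging probe sets of a gene turned ATF4 to -0.023 (adjusted p = 0.925). Array weights also called SLC1A2, SLC43A1 and SLC36A1 higher and SLC7A8 and SLC36A3 lower, with weights from 0.33 for DMSO replicate 1 to 3.49 for DMSO replicate 2. Over all genes, 1812 were called higher and 2121 lower, against 2749 and 3631 with array weights, and with 1 array left out 1158 to 2084 higher and 1206 to 2605 lower. Except where an alternative tests fewer genes or arrays, the cause of these changes was not tested. The deposited values give no signal over background, so how far a dim gene could fall is not known.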
